A study of Homo sapiens with 6 samples.

Results

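The proteasome subunit genes were read on 69 of the 54675 probe sets of a 1-colour Affymetrix array. They were chosen by name, as probe sets whose single gene symbol was PSMA, PSMB, PSMC, PSMD or PSME followed by a number only. These probe sets covered 37 of the 19775 genes with a single-symbol probe set. Of the 37, 14 encode the core particle, 14 the regulatory particle, 4 the immunoproteasome and its activator, 3 chaperones of the base and 2 nuclear activators. PSMA6, PSME2, PSMC5, PSMD7, PSMD13 and PSMB11 had no single-symbol probe set and were not analysed in the tests. The cells were 76N, described by the labels as a line of normal mammary epithelial cells, grown in DFCI-1 medium. Of 6 cultures, 3 were transfected with a control siRNA and 3 with an siRNA against Ecd, the protein of ECD, and each culture gave 1 array of total RNA. All cultures thus share the cell line, the medium and a transfection, so the comparison shows the targeting siRNA against another siRNA in cells of 1 origin. Neither the siRNA sequences nor the dose, nor how long after transfection the cells were collected, is stated in the labels.

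The proteasome is the protease that removes ubiquitin-tagged proteins from the cytosol and the nucleus. Its core particle is a barrel of outer alpha rings, which gate the entrance, and inner beta rings, which hold the cutting sites. The regulatory particle caps the barrel, with a base whose ATPases unfold the substrate and a lid that removes ubiquitin. In cells exposed to interferon, the cutting subunits PSMB5, PSMB6 and PSMB7 are replaced by PSMB8, PSMB9 and PSMB10, which gives the immunoproteasome that makes peptides for display on HLA class I molecules.

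The targeted transcript, ECD, had signals of 1076.6, 1011.4 and 1007.2 in control arrays and 588.9, 599.8 and 542.5 in Ecd siRNA arrays. The groups did not overlap, and ECD retained 55.9% of its control signal (limma adjusted p = 0.000177; exact permutation p = 0.1, two-sided, the smallest that 3 against 3 arrays allow). Array medians ran from 128.7 to 147.6, and log2 signals of arrays of the same group correlated across genes at 0.976 to 0.98, those of arrays of different groups at 0.95 to 0.959. The 3′ to 5′ log2 ratios of the GAPDH and ACTB control probe sets differed between groups by 0.02 and 0.04 (exact permutation p = 0.4 and 0.5, two-sided). Among 6 epithelial markers with a probe set 2 rose, CDH1 and ITGB4, and 0 fell. The keratin genes KRT5 and KRT14 had mean signals of 16435 and 21386 in control arrays. Of 10 fibroblast markers, 5 were above the filter and 2 rose, COL1A1 and FAP, and the summed signal of the 10 was 4153 to 4814 in control and 7017 to 7945 in Ecd siRNA arrays. Most of that difference was FAP, with means of 2610 and 5334, while COL1A2, THY1 and DCN did not pass (-0.17, -0.32 and 0.11). COL3A1, PDGFRA and PDGFRB were under the filter, a mean signal of 90.2. None of the 2 tested of 5 endothelial markers was called, with sums of 900 to 998 and 791 to 898. The part of these markers in the results below was not tested. In RNA from whole cultures, fewer cells of a type and less RNA per cell cannot be told apart.

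Several transcripts of the proteasome were modestly lower after Ecd siRNA. Of 36 tested members, 13 fell, 0 rose and 23 did not pass the threshold of an adjusted p of 0.05 (limma with Benjamini-Hochberg adjustment over all genes). Of all 14614 tested genes, 11.0% were called lower and 10.1% higher. Genes of both kinds were thus common across the array. Among the 5242 tested genes with a mean signal of 1000 or more, a bound set after the values were seen because all but PSMB9 and PSMB10 of the members lie above it, 17.1% were called lower and 17.0% higher. The members' share was 36.1%. Their median log2 change was -0.23, against 0.01 for all tested genes, with a range of -0.66 to 0.10. The changes were small: PSMB9 was the only member lower by more than 1.5-fold, while 945 of all tested genes had a change of that size downwards.

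**Figure D1:**
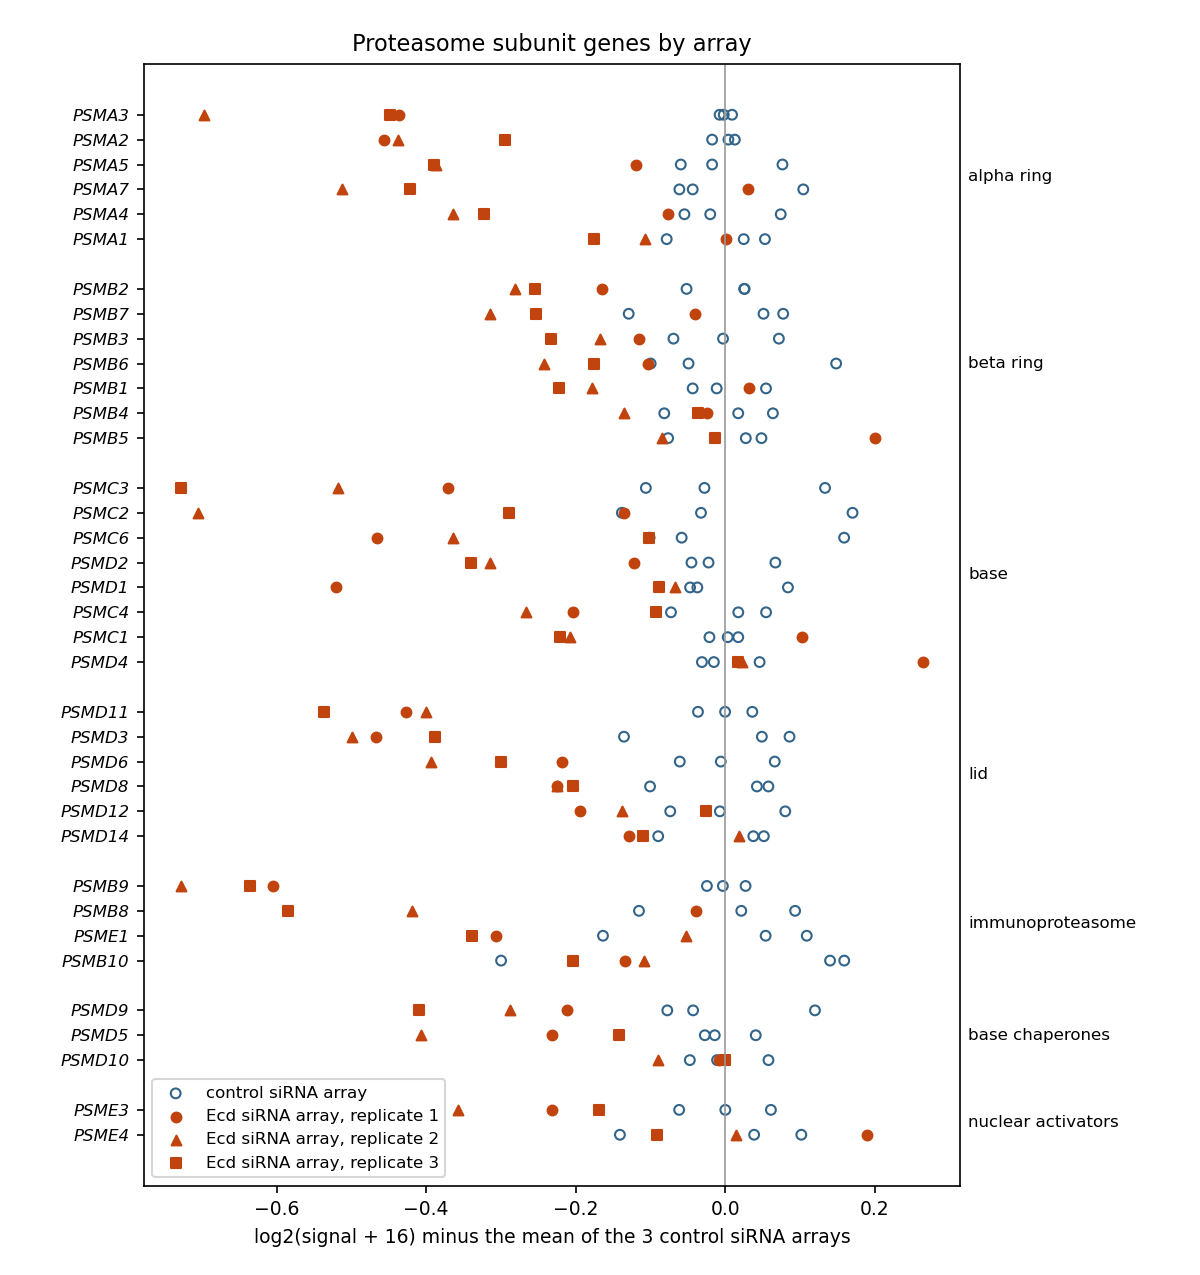
Each row is 1 tested subunit gene, and the horizontal axis is log2(signal + 16) on each array minus the mean of the 3 control siRNA arrays. Open circles are the 3 control arrays and filled symbols the 3 Ecd siRNA arrays; in 20 of 36 genes all filled symbols lie left of all open ones.

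Counted by array, 29, 33 and 35 of the 36 members lay below their control mean in Ecd siRNA replicates 1, 2 and 3. The members' median deviation from the control mean was -0.13, -0.28 and -0.23 on those arrays, and -0.02, -0.01 and 0.02 on the control arrays. For the members, replicate 1 of the Ecd siRNA group was thus nearest to the controls, and 22 of the 36 were at their group's highest value there. These counts by array were not made over all tested genes. Whether the order of the arrays is particular to the members was not tested. By log2 change between the groups, 33 of the 36 members and 2546 of the 5242 genes at a signal of 1000 or more were below 0. All Ecd siRNA values lay below all control values in 20 of 36 members, beside 18.4% of all tested genes and 25.2% of those at a signal of 1000 or more. The count of falls depended on single arrays, at 19 without Ecd siRNA replicate 1, 10 without replicate 3 and 6 without replicate 2, and at 7, 9 and 8 without control replicates 1, 2 and 3. It was also 6 with array medians made equal and 6 without limma's intensity trend. Under both, PSMA5, PSMB2, PSMD2, PSMD6, PSMD8, PSMD9 and PSME3 lost their calls, with adjusted p from 0.069 to 0.222. The median of the members stayed between -0.25 and -0.19 under every alternative.

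**Figure D2:**
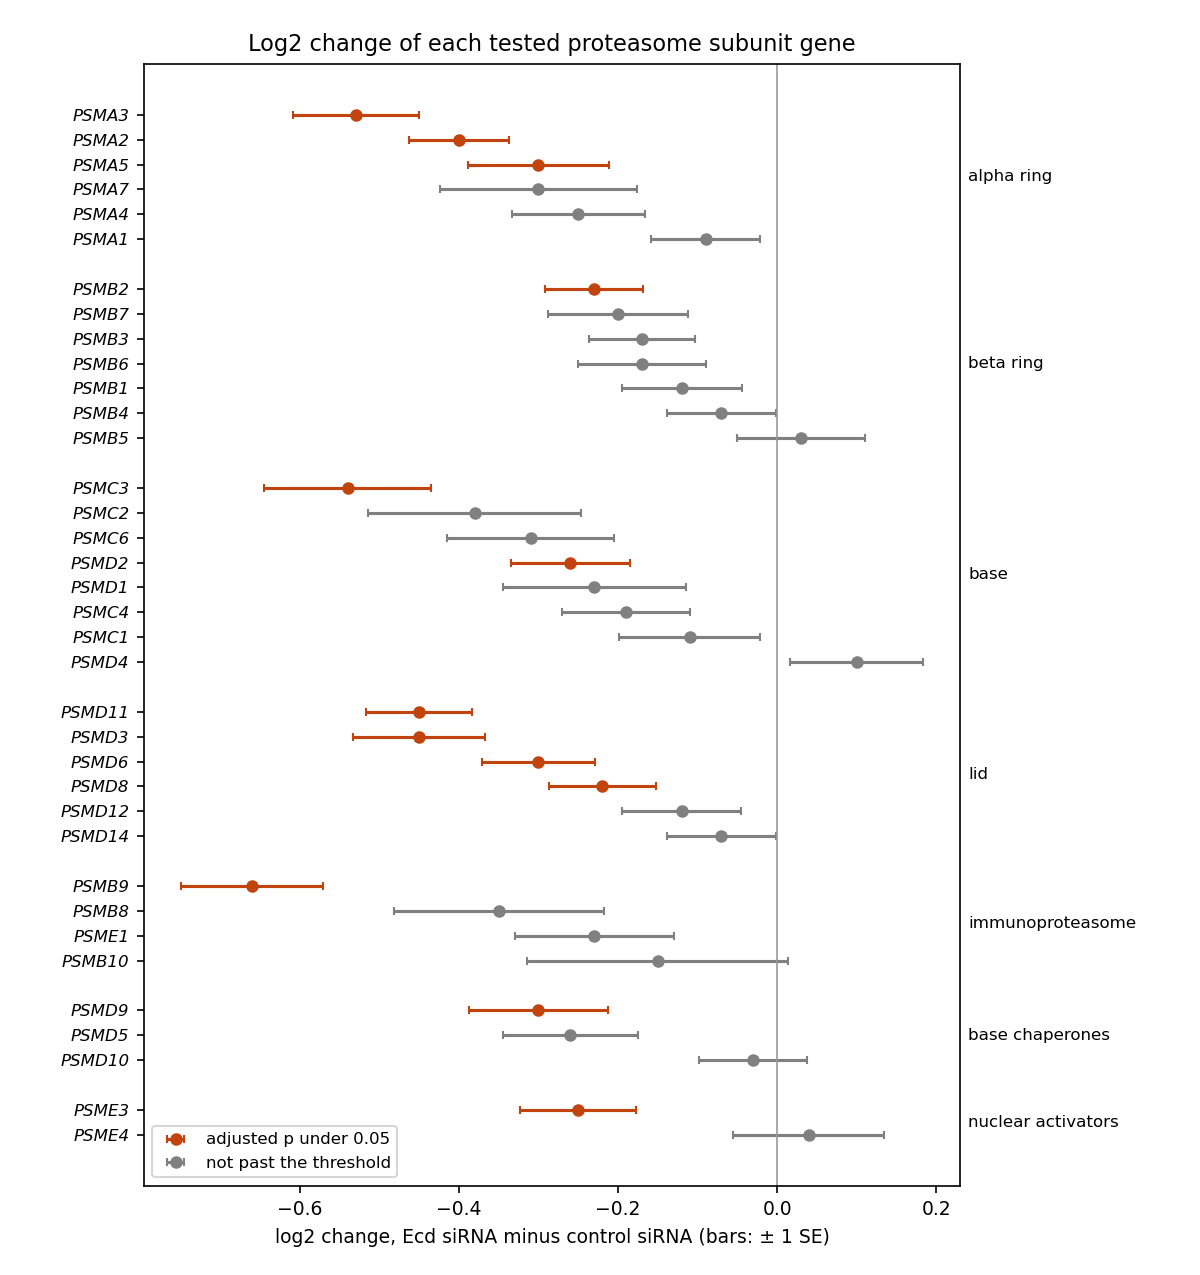
Each row is 1 tested subunit gene and the horizontal axis is its log2 change, Ecd siRNA minus control siRNA, with bars of 1 SE (n = 3 arrays each). The 13 coloured points passed the threshold and all lie left of 0; PSMB5, PSMD4 and PSME4 are the members to the right of 0.

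In the core particle 4 of 13 tested genes fell (30.8%) and 0 rose, with a median of -0.20. Beside this share, 17.1% of all tested genes at a signal of 1000 or more were called lower. Of the 4, 3 belong to the alpha ring, whose 6 tested genes had a median of -0.30 and were all below 0. PSMA3, a subunit of the ring, had signals of 6270.1, 6318.7 and 6245.9 in control arrays and 4636.2, 3865.5 and 4596.7 in Ecd siRNA arrays. The groups did not overlap and 69.5% of the control signal remained (log2 change -0.53, SE 0.0792, adjusted p = 0.000927). PSMA2, another subunit gene of the ring, went from 9907.2, 9758.3 and 9966.4 to 7193.0, 7289.0 and 8052.1, again without overlap (log2 change -0.40, SE 0.0633, adjusted p = 0.00138). A dimmer probe set of PSMA2 was at -0.37 and did not pass (adjusted p = 0.0521 among all probe sets). A pair of probe sets annotated to both PSMA2 and C7orf25, which entered no test, had means of 769 and 251 in control and 766 and 269 in Ecd siRNA arrays. For PSMA5 the control values were 3676.0, 3570.3 and 3924.9 and the Ecd siRNA values 3424.1, 2841.2 and 2837.5. Its Ecd siRNA arrays were all lower, but by little in replicate 1 (log2 change -0.30, adjusted p = 0.0356). That call was lost on leaving out any array other than Ecd siRNA replicate 1 (adjusted p up to 0.121).

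The promoters of PSMA3 and PSMA2 are shown because these genes fell the most in the ring and both hold the letters CCAAT, in capitals, close to the start. The stretches are the 120 bases before the annotated start (RefSeq, GRCh38.p14), at chr14:58244723-58244842 on the plus strand and chr7:42932175-42932294 on the minus strand. In PSMA3 the motif occurs on the plus strand from position -18 and, as ATTGG, on the minus strand from -35, and in PSMA2 on the plus strand from -84.
PSMA3: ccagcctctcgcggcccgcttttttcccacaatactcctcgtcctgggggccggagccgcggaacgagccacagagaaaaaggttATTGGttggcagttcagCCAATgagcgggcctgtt
PSMA2: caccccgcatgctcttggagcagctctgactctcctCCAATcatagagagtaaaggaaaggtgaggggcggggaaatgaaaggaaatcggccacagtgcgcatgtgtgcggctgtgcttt

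The other alpha ring genes did not pass. PSMA7 was at -0.30 (SE 0.124, adjusted p = 0.12) with Ecd siRNA values of 6663.9, 4569.7 and 4866.1 against 7016.0, 6330.6 and 6252.7, so replicate 1 lay among the controls. Without that array PSMA7 passed, as did PSMA4, which was otherwise at -0.25 (adjusted p = 0.0552). A second probe set of PSMA7 was called lower (-0.42, adjusted p = 0.0292 among all probe sets). PSMA1 was at -0.09 (adjusted p = 0.392) in its brightest probe set, while another of its 3 probe sets was called lower (-0.22, adjusted p = 0.0298). PSMA8, the testis-specific alpha subunit, had mean signals of 75.1 and 59.6, under the filter, and was not tested.

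In the beta ring 1 of 7 tested genes fell, with a median of -0.17. That share, 14.3%, was no higher than the 17.1% of all tested genes at a signal of 1000 or more. PSMB2, a structural subunit without a cutting site, had 8482.1, 8478.3 and 8036.5 in control arrays and 7425.8, 6854.4 and 6977.6 in Ecd siRNA arrays. These groups did not overlap (log2 change -0.23, SE 0.0614, adjusted p = 0.0214), but the call was lost when control array 1 or 2, or Ecd siRNA array 2 or 3, was left out (adjusted p up to 0.095) and in the probe set without _s or _x (-0.14, adjusted p = 0.586). PSMB3, also structural, went from 5743.4, 6049.7 and 5484.6 to 5314.0, 5124.4 and 4893.7, with no overlap and an adjusted p of 0.101. PSMB1 and PSMB4, which complete the structural set, were at -0.12 and -0.07 (adjusted p = 0.305 and 0.575), and PSMB1 passed without Ecd siRNA replicate 1 (adjusted p = 0.0478).

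None of the 3 genes for the constitutive cutting subunits passed the threshold. PSMB5, which holds the chymotrypsin-like site, had signals of 7737.7, 7851.1 and 7198.7 against 8727.5, 7158.6 and 7522.1 after Ecd siRNA. The groups overlapped, and the log2 change was 0.03 with a 95% interval of -0.14 to 0.21. PSMB6, the caspase-like subunit gene, had 4379.1, 5204.2 and 4536.3 against 4367.7, 3965.9 and 4154.6 (log2 change -0.17, interval -0.35 to 0.01, adjusted p = 0.167). Its groups did not overlap, but their nearest arrays were almost equal. For PSMB7, the trypsin-like subunit gene, the values were 5268.0, 6082.0 and 5971.8 against 5601.6, 4630.9 and 4831.2 (log2 change -0.20, interval -0.40 to -0.01, adjusted p = 0.139). Ecd siRNA replicate 1 lay among the controls here too, and without it PSMB7 passed (adjusted p = 0.0343). These intervals bound any fall of the cutting subunits and do not show that they stayed level.

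In the regulatory particle 6 of 14 tested genes fell (42.9%) and 0 rose, with a median of -0.24. In its base 2 of 8 tested genes fell (25.0%), with a median of -0.24. Beside these shares, 17.1% of all tested genes at a signal of 1000 or more were called lower. PSMC3, an ATPase of the ring that threads substrates into the core, had the largest change of the base, from 2354.8, 2635.4 and 2229.4 to 1853.1, 1671.6 and 1443.1. There was no overlap and 68.8% of the control signal remained (log2 change -0.54, SE 0.105, adjusted p = 0.0045). PSMD2, a scaffold on which ubiquitin shuttles dock, went from 6313.2, 6213.7 and 6717.8 to 5892.1, 5153.0 and 5063.9 (log2 change -0.26, SE 0.0749, adjusted p = 0.0331). Leaving out any array other than Ecd siRNA replicate 1 ended the call for PSMD2 (adjusted p up to 0.11). The PSMC3 promoter is given as that of the ATPase gene that fell the most, 120 bases before the start at chr11:47426440-47426559 on the minus strand (RefSeq, GRCh38.p14), with CCAAT in capitals from position -114.
PSMC3: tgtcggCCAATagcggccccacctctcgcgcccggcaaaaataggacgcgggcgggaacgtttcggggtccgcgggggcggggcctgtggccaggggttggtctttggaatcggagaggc

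The other ATPase genes were lower without passing in their brightest probe sets. PSMC2 was at -0.38 (SE 0.134, adjusted p = 0.0742), PSMC6 at -0.31 (0.0605), PSMC4 at -0.19 (0.135) and PSMC1 at -0.11 (0.453). A dimmer probe set of PSMC2 was called lower (-0.38, adjusted p = 0.0422 among all probe sets), and its dimmest was at -0.04. Without Ecd siRNA replicate 1 PSMC2 and PSMC1 passed, and without replicate 3 PSMC6 did. PSMD1, the larger scaffold of the base, was at -0.23 in its brightest probe set (adjusted p = 0.209) and at -0.50 in a second, similarly bright one that was called lower (adjusted p = 0.017 among all probe sets). PSMD4, a ubiquitin receptor, pointed the other way. Its signals were 2934.9, 3062.8 and 2902.4 in control arrays and 3566.3, 3012.9 and 3002.3 in Ecd siRNA arrays, which overlapped (log2 change 0.10, interval -0.08 to 0.29). Of its 4 probe sets above the filter, the 3 bright ones were at 0.10, 0.16 and 0.22 and none passed.

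In the lid 4 of 6 tested genes fell (66.7%, beside 17.1% of those at a signal of 1000 or more), with a median of -0.26. PSMD11, a clamp between the lid and the core, went from 5104.6, 4977.5 and 5235.6 to 3792.6, 3865.2 and 3513.3. The groups did not overlap and 72.9% of the control signal remained (log2 change -0.45, SE 0.067, adjusted p = 0.000831). Its only other probe set, with mean signals of 342 and 298, was at -0.20 and did not pass. PSMD3, a scaffold subunit of the lid, went from 2906.0, 2832.0 and 2490.1 to 1975.0, 1932.2 and 2086.7 (log2 change -0.45, SE 0.0827, adjusted p = 0.00309), again with no overlap.

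The other lid genes past the threshold fell by less. For PSMD6 the control values were 5894.5, 5396.1 and 5606.1 and the Ecd siRNA values 4835.4, 4280.4 and 4569.3 (log2 change -0.30, adjusted p = 0.0115), a call lost without control replicate 1 or Ecd siRNA replicate 2 (adjusted p up to 0.0659) and when its probe sets were averaged (-0.15, adjusted p = 0.473). The other probe set of PSMD6 in that average was under the filter, with means of 3.73 and 3.77. PSMD8 went from 4766.0, 5264.2 and 5320.8 to 4369.0, 4372.4 and 4434.3 (log2 change -0.22, adjusted p = 0.0434), a call lost on leaving out any array other than control replicate 1 (adjusted p up to 0.133). PSMD14, the deubiquitinase that strips ubiquitin from the substrate, had 7537.6, 6899.7 and 7611.6 against 6715.4, 7436.4 and 6801.9. These groups overlapped (log2 change -0.07, interval -0.23 to 0.08), and PSMD12, a lid scaffold gene, was at -0.12 (adjusted p = 0.317).

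The PSMD3 promoter is shown as the member with a TGACNNNGC match near its start among the larger falls. These letters, in capitals, are those of the antioxidant response element, through which factors such as NFE2L1 act on proteasome genes. They were found in 3 of the 13 members that fell and in 8 of the 18 with a promoter that did not pass. The stretch is the 120 bases before the start at chr17:39980687-39980806 on the plus strand (RefSeq, GRCh38.p14), and the match begins at position -37. A match to TTCNNNGAA, another motif searched, begins at -94 and is left in lower case.
PSMD3: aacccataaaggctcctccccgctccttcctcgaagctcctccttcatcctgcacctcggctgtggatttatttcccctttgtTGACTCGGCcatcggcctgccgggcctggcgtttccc

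Among the chaperones that help assemble the base, PSMD9 fell, from 2166.1, 2114.5 and 2427.2 to 1925.4, 1826.1 and 1675.9 (log2 change -0.30, adjusted p = 0.0326). That call was lost when control array 1 or 3, or Ecd siRNA array 2 or 3, was left out (adjusted p up to 0.113). Another probe set of PSMD9, with means of 304 and 291, was at -0.06 and did not pass, and their average was at -0.18 (adjusted p = 0.18). PSMD5 had 2448.3, 2543.8 and 2425.7 against 2103.3, 1861.2 and 2239.4, without overlap but at an adjusted p of 0.0538 (log2 change -0.26), and it passed without Ecd siRNA replicate 3. PSMD10, which encodes gankyrin, was at -0.03 with an interval of -0.18 to 0.12. The PSMD9 promoter holds TGACNNNGC on the plus strand from -102 and on the minus strand from -149, shown in capitals in the 160 bases before the start at chr12:121888630-121888789 on the plus strand (RefSeq, GRCh38.p14).
PSMD9: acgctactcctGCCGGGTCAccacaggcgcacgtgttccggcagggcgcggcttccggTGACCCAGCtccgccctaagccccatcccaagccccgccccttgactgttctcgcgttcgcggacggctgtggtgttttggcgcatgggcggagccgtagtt

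The nuclear activators open the core without ATP. PSME3 fell, from 4905.8, 4504.3 and 4702.0 to 4001.1, 3666.1 and 4179.3 (log2 change -0.25, adjusted p = 0.0327), and lost its call without control replicate 1 or 3 or Ecd siRNA replicate 2 (adjusted p up to 0.138). Its other 3 probe sets were at -0.22, -0.15 and -0.10. PSME4, the largest activator, had 2430.9, 2755.3 and 2879.3 against 3061.6, 2708.3 and 2517.5, which overlapped (log2 change 0.04, interval -0.17 to 0.25). Its 3 probe sets disagreed, since 1 was called higher (0.32, adjusted p = 0.0399 among all probe sets) and the others were at 0.04 and -0.04.

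**Figure D3:**
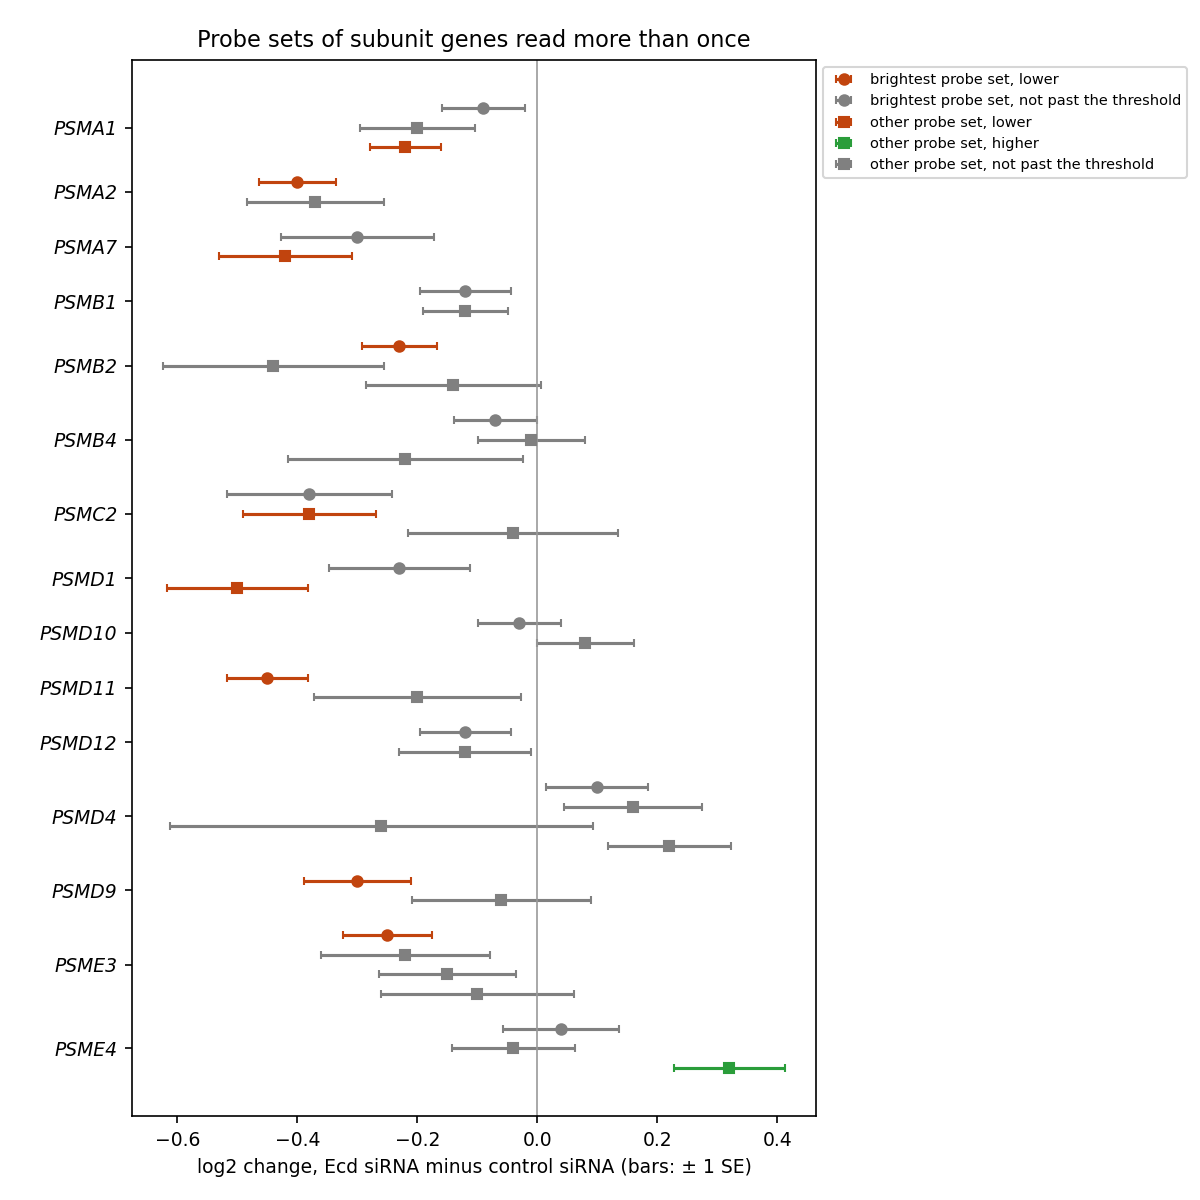
The 15 subunit genes with over 1 probe set above the filter are in rows, and each point is the log2 change of 1 probe set, Ecd siRNA minus control siRNA, with bars of 1 SE (n = 3 arrays each). Circles mark the brightest probe set; the probe sets of PSMD10, PSMD4 and PSME4 lie on both sides of 0, and 1 of PSME4 is the only one called higher.

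Probe set by probe set, 60 of the 69 probe sets lay above the filter and 53 of them had a change below 0. Of these 60, 16 were called lower and 1 higher, with a median change of -0.21. Of all 27030 single-symbol probe sets above the filter, 2346 (8.68%) were called lower and 2261 higher, with a median of 0.01. That background takes in dim probe sets and was not matched to the members' signals. By gene, the share called lower was 11.0% over all tested genes and 17.1% at a signal of 1000 or more. In 15 genes more than 1 probe set could be compared, and in 3 of them, PSMD4, PSMD10 and PSME4, they pointed both ways. For 16 of the 36 tested genes the brightest probe set ended in _s_at or _x_at, which can bind related transcripts. Averages over all probe sets of a gene took in those under the filter. In these averages PSMA3, PSMA5, PSMB2, PSMD6, PSMD9 and PSME3 did not pass (adjusted p from 0.108 to 0.587). PSMA7 and PSMD1 passed in them, both at -0.36 (limma adjusted p = 0.0115 and 0.0142), so that 9 members fell. For PSMA3, PSMA5, PSMB2 and PSMD6 the average held probe sets under the filter. Their control means were 47.9 and 105 for PSMA3, 84.6 for PSMA5, 22.4 for PSMB2 and 3.73 for PSMD6.

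Among the immunoproteasome genes PSMB9 showed the largest fall of all members. Its signals were 1090.1, 1106.6 and 1130.5 in control arrays and 723.8, 663.3 and 707.7 in Ecd siRNA arrays. Each group was narrow and the gap between them wide, so that 63.0% of the control signal remained (log2 change -0.66, SE 0.0893, adjusted p = 0.000507). PSMB9 kept its call under every alternative run, with changes of -0.68 to -0.62 on leaving out 1 array. PSMB8 had 1473.1, 1705.1 and 1621.3 against 1554.4, 1190.8 and 1059.4, so replicate 1 lay among the controls (log2 change -0.35, SE 0.132, adjusted p = 0.0931). It passed without that array, at -0.50 (adjusted p = 0.00813).

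The remaining members of this group did not pass. PSMB10 was dim, at 343.5, 338.8 and 245.5 against 277.3, 282.7 and 263.5, with overlap and an interval of -0.51 to 0.22. PSME1, which encodes a subunit of the interferon-inducible activator ring, had 3358.1, 2885.6 and 3489.2 against 2610.8, 3116.5 and 2552.8 (log2 change -0.23, adjusted p = 0.137). In all, 1 of 4 fell (25.0%, beside 11.0% of all tested genes), with a median of -0.29. Leukocytes express these subunits strongly. Of 7 leukocyte markers with a probe set, 3 were above the filter, CD2, MS4A1 and LYZ, at control means of 150, 109 and 94.7, and 0 were called. The other 4, PTPRC, HLA-DRA, CD3E and CD14, were under it by their mean over all arrays and were not tested. Their control means were 27.1, 20.5, 88.5 and 112. CD14 was lower after Ecd siRNA, at a mean of 38.8, without overlap. The groups of PTPRC, HLA-DRA and CD3E overlapped. The part of leukocyte markers in these results was not tested. The summed signal of the 7 leukocyte markers with a probe set was 529 to 649 in control and 427 to 586 in Ecd siRNA arrays.

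The log2 ratio of each inducible cutting subunit to the one it replaces was compared within arrays. PSMB9 over PSMB6 was -1.99, -2.22 and -1.99 in control arrays and -2.57, -2.55 and -2.53 in Ecd siRNA arrays, a difference of -0.48 without overlap. PSMB8 over PSMB5 differed by -0.38, also without overlap, and PSMB10 over PSMB7 by 0.05 with overlap. With PSMB9 over TAP1, 4 ratios were compared, and the exact permutation p was 0.1, 0.1, 0.9 and 0.1 (two-sided; 0.133, 0.133, 0.9 and 0.133 after adjustment), so none could pass in a design whose smallest p is 0.1. Only the difference between the groups can be read, since signals of different probe sets are not on 1 scale.

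PSMB9 lies head to head with TAP1, the gene of a peptide transporter for HLA class I loading, and their annotated starts are 488 bases apart, or 1431 for a second start of TAP1. PSMB9 fell and TAP1 did not pass. TAP1 had 1527.5, 1579.9 and 1809.9 in control arrays and 1815.2, 1666.8 and 1592.0 in Ecd siRNA arrays, which overlapped (log2 change 0.05, interval -0.16 to 0.25). The ratio of PSMB9 to TAP1 differed by -0.70 on the log2 scale and its groups did not overlap. Part of the sequence between the genes is shown for this reason, the 250 bases before the PSMB9 start at chr6:32853942-32854191 on the plus strand (RefSeq, GRCh38.p14), with a TGACNNNGC match of the minus strand in capitals from -148 and a CCAAT, left in lower case, from -243.
PSMB9: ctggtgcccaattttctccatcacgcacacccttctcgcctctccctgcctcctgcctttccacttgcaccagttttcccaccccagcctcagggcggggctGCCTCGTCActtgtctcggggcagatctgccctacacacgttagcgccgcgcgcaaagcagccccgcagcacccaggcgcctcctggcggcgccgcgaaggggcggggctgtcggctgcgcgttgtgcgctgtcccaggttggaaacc

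Of 12 tested genes of antigen presentation, 4 rose, all of them HLA genes, and 0 fell, and the median was 0.09. Beside them, 10.1% of all tested genes and 17.0% of those at a signal of 1000 or more were called higher. HLA-F went from 4200.8, 4382.4 and 4232.3 to 6755.8, 6397.5 and 5830.9 (log2 change 0.56, adjusted p = 0.000317) and HLA-E from 3432 to 4485 (0.39, adjusted p = 0.00467). HLA-B (0.31, adjusted p = 0.0205) and HLA-C (0.25, adjusted p = 0.00613) rose less. HLA-B and HLA-C lost their calls with array medians made equal or without the trend (adjusted p up to 0.109 and 0.0809), and HLA-B also without the filter and without control replicate 2 or 3 (adjusted p up to 0.0719). All 4 were read by probe sets ending in _x_at, so HLA transcripts may not be told apart. B2M, the invariant light chain of these molecules, was at 0.00 (interval -0.11 to 0.11), and IRF1, an interferon-induced regulator of PSMB9, was at -0.36 with an adjusted p of 0.0507. The groups of IRF1 did not overlap, and it was called lower under 4 of the 18 alternatives.

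**Figure D4:**
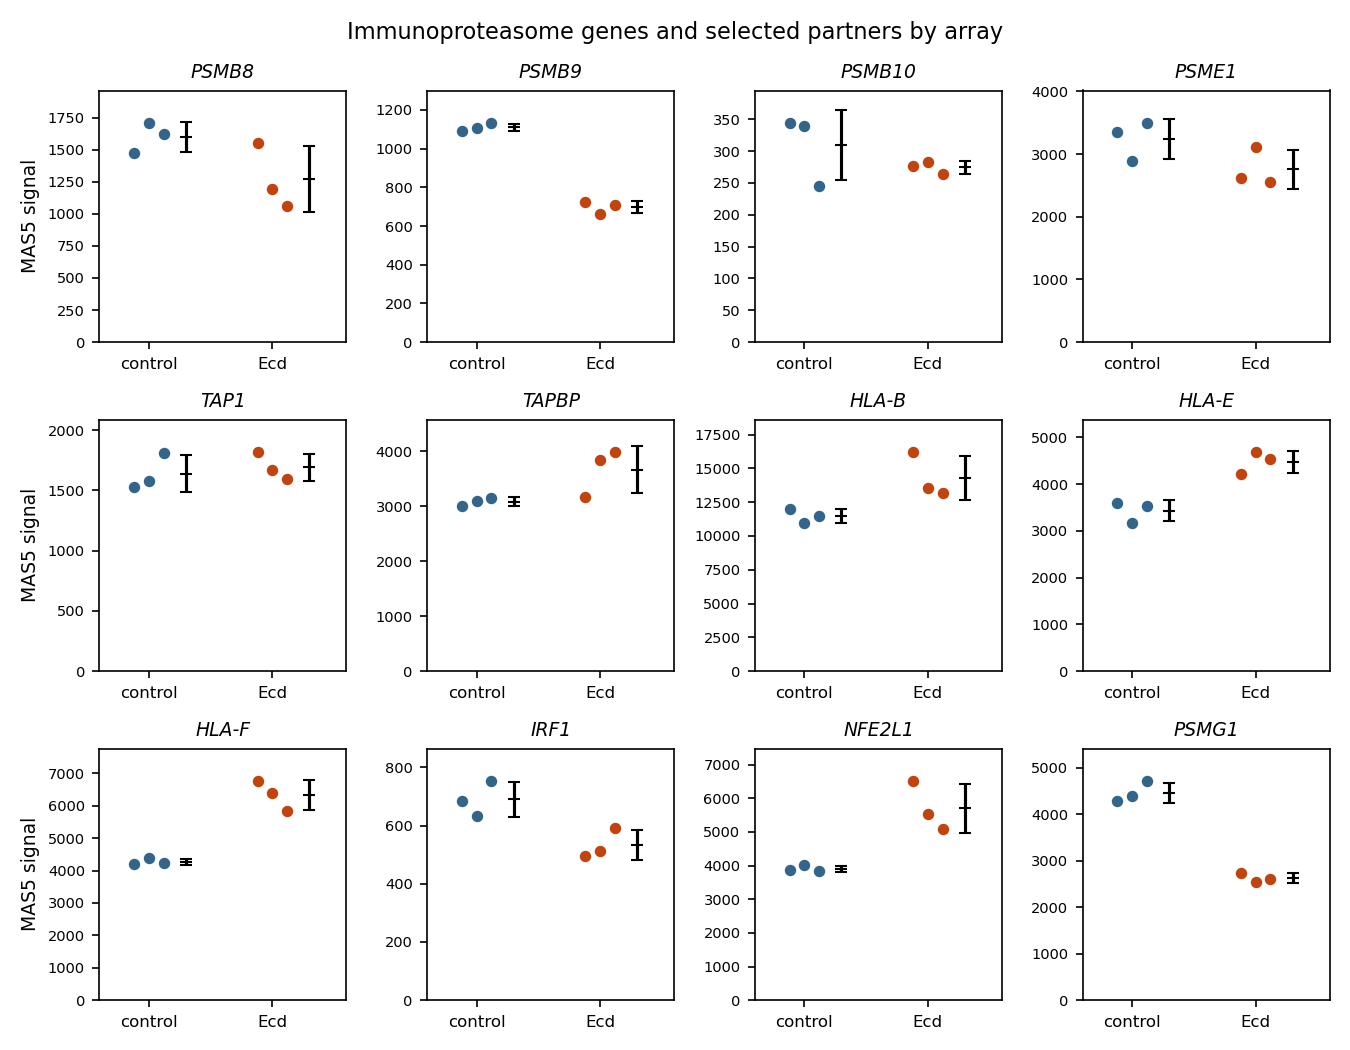
Each panel is 1 gene, with the MAS5 signal on a linear axis from 0, 3 control siRNA arrays at left and 3 Ecd siRNA arrays at right; the dash and bar beside each group are its mean and SD. PSMB9, PSMG1 and IRF1 are lower without overlap. HLA-B, HLA-E, HLA-F, NFE2L1 and TAPBP are higher without overlap. PSMB8, PSMB10, PSME1 and TAP1 overlap. IRF1 and TAPBP did not pass the threshold.

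Other genes of the pathway were described from lists of partners, of which 40 of 47 could be tested, with 7 falls (17.5%) and 5 rises. Among genes at a signal of 1000 or more 17.1% were called lower and 17.0% higher, so these counts lie near the background. Among 9 further subunit and core assembly genes, 4 fell and 0 rose. PSMG1, a chaperone that starts the alpha ring, had the largest change of all tested members and partners, from 4279.7, 4390.9 and 4705.8 to 2737.6, 2540.6 and 2609.7. No array overlapped and 59.0% of the control signal remained (log2 change -0.76, SE 0.0706, adjusted p = 3.79e-05). Its partner PSMG2 fell from 6145.7, 6114.2 and 6207.2 to 5411.0, 4879.4 and 4732.6, also without overlap (-0.30, adjusted p = 0.0107) and PSMG3 from a mean of 1260 to 893 (-0.48, adjusted p = 0.0289). ADRM1, a ubiquitin receptor of the base, fell at the edge of the threshold (-0.21, adjusted p = 0.0495). PSMG2 lost its call with array medians made equal (adjusted p = 0.0702) or without the trend (0.0683). PSMG3 lost its call without the trend and when control array 1 or 2, or Ecd siRNA array 2 or 3, was left out (adjusted p up to 0.1), and ADRM1 without any array other than Ecd siRNA replicate 1 (adjusted p up to 0.153). POMP, which matures the core, was at -0.08 (interval -0.21 to 0.05) and PSMF1, an inhibitor of the core, at -0.04.

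Of 11 tested enzymes and shuttles that bind the proteasome, 2 fell (18.2%), a share near the 17.1% of genes at a signal of 1000 or more. UCHL5, a deubiquitinase held by ADRM1, went from 1989.6, 1833.2 and 2028.2 to 1104.4, 1158.8 and 1293.8 in its brightest probe set (-0.71, adjusted p = 0.000312), but it was at 0.11 in the probe set without _s or _x (adjusted p = 0.839). USP14, another deubiquitinase of this list, was at -0.18 (adjusted p = 0.0458), a call lost on leaving out any 1 array (adjusted p up to 0.13). The other 9 did not pass.

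NFE2L1 encodes a transcription factor that raises proteasome genes when proteasome activity is short. The NFE2L1 transcript rose after Ecd siRNA. Its signals were 3862.1, 4001.3 and 3837.0 in control arrays and 6500.6, 5527.1 and 5074.4 in Ecd siRNA arrays. All Ecd siRNA values were above all control values, at 146% of the control mean (log2 change 0.54, SE 0.0892, adjusted p = 0.00174). The call held under all 18 alternatives. Neither NFE2L1 protein nor proteasome activity was measured on these arrays, and a link between this rise and the members was not tested. Of the 5 tested genes of this group UFD1, a cofactor of the segregase VCP, fell (-0.41, adjusted p = 0.0155), and it lost its call without the trend (adjusted p = 0.0778) and without control replicate 1 or 3 or Ecd siRNA replicate 2. VCP itself was at -0.24 (adjusted p = 0.0765). None of the 3 tested ubiquitin and E1 genes passed: UBB was at -0.01, UBA1 at 0.06 and UBA6 at 0.01.

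The promoters of the members were compared by 3 motifs, searched on both strands of windows from 250 bases before to 50 after each annotated start (RefSeq, GRCh38.p14). Promoters were found for 31 of the 36 tested genes, and PSMA7, PSMB1, PSMB6, PSMB7 and PSMD4 had none in the table. None of these genes passed, so the missing promoters are all on that side of the counts below. CCAAT, the letters that the factor NF-Y binds, was in 16 of 36 member promoters (44.4%) and in 34.6% of all 35116 promoters. Counted by gene over all starts, it was in 10 of the 13 that fell and in 6 of the 18 that did not pass. No count by gene was made beyond the members. TGACNNNGC was in 30.6% of member promoters and 13.3% of all, and in 3 of the 13 and 8 of the 18. The STAT-type TTCNNNGAA was in 19.4% and 7.66%, and in 4 of the 13 and 3 of the 18. Of 42 matches in members 2 overlapped another, both CCAAT in PSMD14. A match is a description of letters and not a site shown to be used.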

How the data were processed

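RNA from 6 cultures (3 control siRNA, 3 Ecd siRNA, grouped by sample title) was measured on 1 array each. Each probe set has 1 intensity per array as the authors deposited it, a MAS5 signal per the submitters' processing notes, with no version or scaling target stated there. The mean between percentiles 2 and 98 was 500 to 500.1 on every array, so the signals had been scaled and a shift common to the whole array cannot be read from them. No detection calls were used here, and the number of arrays limits the precision.

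Gene symbols came from GEO's annotation of the platform. Each gene was read by its single-symbol probe set with the highest mean signal, and was tested where that mean was at least 90.2, which keeps the top 60% of probe sets. Values were log2(signal + 16), so fold changes of dim genes are understated. Limma 3.58.1 (lmFit, eBayes with intensity trend, R 4.3.3) compared the groups without covariates over 14614 genes, with Benjamini-Hochberg adjustment and a threshold of 0.05. Adjusted p-values for single probe sets are over all 27030 single-symbol probe sets above the filter. Lists are described by counts and medians, with no set test. The pipeline was tested on simulated data. Replicates are biological per the labels, so p-values rest on the spread among 6 separate cultures of 1 cell line. No batch is named in the labels.

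By rule, every tested member is named, with values on each array for up to 4 members past the threshold per part (the 2 of smallest p where fewer than 2 passed) and for the cutting, immunoproteasome, PSMD4 and PSMD14 genes. Partners were chosen alike, some given by change alone. TAP1, the array values of PSMA7 and the exceptions in probe sets were singled out after their values were seen. The members and lists were chosen with earlier results of these data known. Alternatives were other pseudocounts (1, 64), scalings, filters, choices of probe set, no trend, weights per array, a block for the replicate number, and leaving out 1 array at a time.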

Additional observations from a re-analysis of the deposited data

How the results depend on the processing

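Of the 13 members that fell, 4 (PSMA2, PSMB9, PSMC3 and PSMD3) kept the call under all 18 alternatives, and 10 of the 23 others were called lower under some alternative. No member call changed direction. With array medians made equal, 2 core genes, 3 regulatory particle genes, 6 members in all and 4 partners fell and 3 partners rose. Without the intensity trend the counts were 2, 3, 6, 2 and 3. With the mean of all probe sets, those under the filter included, 2 core genes fell, and PSMA3 lost its call (-0.35, adjusted p = 0.445). With probe sets without _s or _x 4 partners fell, PSMD11 was at -0.20 (adjusted p = 0.483) and UCHL5 turned to 0.11. Taken one by one, 2261 probe sets rose in all, with 1 of members and 16 of partners. The ACTB ratio of 3′ to middle probe sets differed by -0.01. Leaving out 1 array, 2 to 8 core genes, 3 to 7 regulatory particle genes, 1 to 2 immunoproteasome genes, 6 to 19 members and 3 to 6 partners fell, 0 members and 4 to 6 partners rose, 1148 to 1524 of all genes fell and 1040 to 1326 rose, and ECD was at -0.85 to -0.78. The cause of these differences was not tested, apart from the fewer arrays. With the replicate number as a block, 15 members and 1691 of all genes fell and ADRM1 and USP14 lost their calls. Same-numbered arrays deviated together with correlations of -0.003, 0.084 and 0.157, and 4 of 6 arrays correlated best with their own number. These values do not settle whether the numbers pair the cultures, and the main fit did not pair them. Depth is unknown for arrays, and dim probe sets such as that of PSMB10 limit what can be seen.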

Other observations

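Some subunits were read only, or also, by probe sets annotated to 2 genes, which entered no test. The probe set shared by PSME2, the second subunit of the inducible activator ring, and MIR7703 had signals of 5447.4, 5148.4 and 6000.7 in control arrays and 4750.9, 4277.5 and 3951.3 in Ecd siRNA arrays, with no overlap. PSMA6, the remaining alpha ring gene, shares its probe sets with PRORP, and they differed: 1 went from a mean of 2441 to 2008 without overlap and the brighter one stood at 6925 and 6929. The PSMA2 and C7orf25 probe sets, of which 1 stood at 99.5% and 1 at 107% of its control mean, overlapped between the groups.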
